A study of Mus musculus with 2 samples.

Results

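Migrating neuroblasts are the newborn interneurons that reach the adult olfactory bulb, and the genes described here are 10 that mark them: Dcx, Sox11, Sox4, Dlx1, Dlx2, Sp8, Sp9, Cd24a, Igfbpl1 and Prokr2. They were found by their gene symbol among the non-control probes of an Agilent mouse expression array, which carried 21 probes for these 10 genes among 56605 probes under 37074 gene names. The rule itself uses the symbol alone, but the genes were proposed with earlier results of these data known. Total RNA of the olfactory bulb, where the nose's sensory axons end, was taken from 1 mouse kept under odor-enriched conditions (odor enriched) and from 1 mouse kept under standard odor conditions (control), and each RNA was labelled with the dye Cy3 and hybridized to 1 array. The labels call the tissue neurons of the bulb but its source the bulb itself. No sorting step is stated, nor any strain, sex, age, odor or length of exposure.

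With 1 array in each group there was no replicate and no test of the groups could be made, and precision is limited by having 1 array each. Animal, array and condition cannot be told apart, although both arrays were on the same slide per the file headers. No p-value is given, and the errors printed below cover the arrays only. Because the tissue is a mixture of cells, fewer neuroblasts and less RNA per neuroblast cannot be told apart either. Of the spots that were not controls, 67.6% were well above background in the odor-enriched sample and 73.7% in the control sample, and 0 were saturated on either array. Signals were scaled to each array's 75th percentile, and a difference is the log2 level of the odor-enriched sample minus that of the control sample. A level is the log2 signal relative to that percentile. A gene's value is the mean over its probes that were well above background on both arrays.

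In the adult rodent brain, stem cells lining the lateral ventricles produce neuroblasts that travel in chains along the rostral migratory stream, detach in the bulb and become granule and periglomerular interneurons. Homeodomain factors of the Dlx family and zinc finger factors of the Sp family hold them to an inhibitory fate. SoxC factors and the microtubule protein doublecortin accompany their differentiation and movement, and prokineticin signalling attracts them into the bulb.

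All 10 genes were well above background in the odor-enriched sample and in the control sample, through 19 of the 21 probes. The bulb's resident cells were detected too: 14 of 14 markers of mature bulb interneurons, 10 of 10 of granule cells, 9 of 9 of dopaminergic periglomerular cells and 8 of 9 mitral and tufted cell markers on the array were measured on both arrays.

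The 10 genes had no common difference. Prokr2, the receptor for prokineticins, exceeded 2-fold upward in the odor-enriched sample, and 0 of 10 genes exceeded it downward. Among all 23872 genes with a value from both arrays, 11.5% exceeded 2-fold upward and 5.52% downward, so 1 of 10 and 0 of 10 are near the background and are not a result about these genes. The median difference of the 10 genes was 0.31, against 0.0016 over all measured genes. The surface and secreted proteins Cd24a, Igfbpl1 and Prokr2 and the microtubule protein Dcx had the 4 highest gene values. The fate-setting factors Dlx1, Dlx2, Sp8 and Sp9 lay between -0.48 and 0.12. Of the SoxC factors, Sox11 (0.49) lay just below Cd24a (0.52), and Sox4 was at -0.03. The place of Dcx rests on the mean of its probes, since its most 3′ probe gave -0.23. Scaled on the E1A spike-in probes instead, which lowered the median of all genes by 1.91 log2 units, every one of the 10 differences was negative, from -2.39 for Dlx1 to -0.33 for Prokr2. Spike-in scaling moves every gene by the same amount, so by construction the 10 genes' median stayed 0.30 above the median of all genes.

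**Figure D1:**
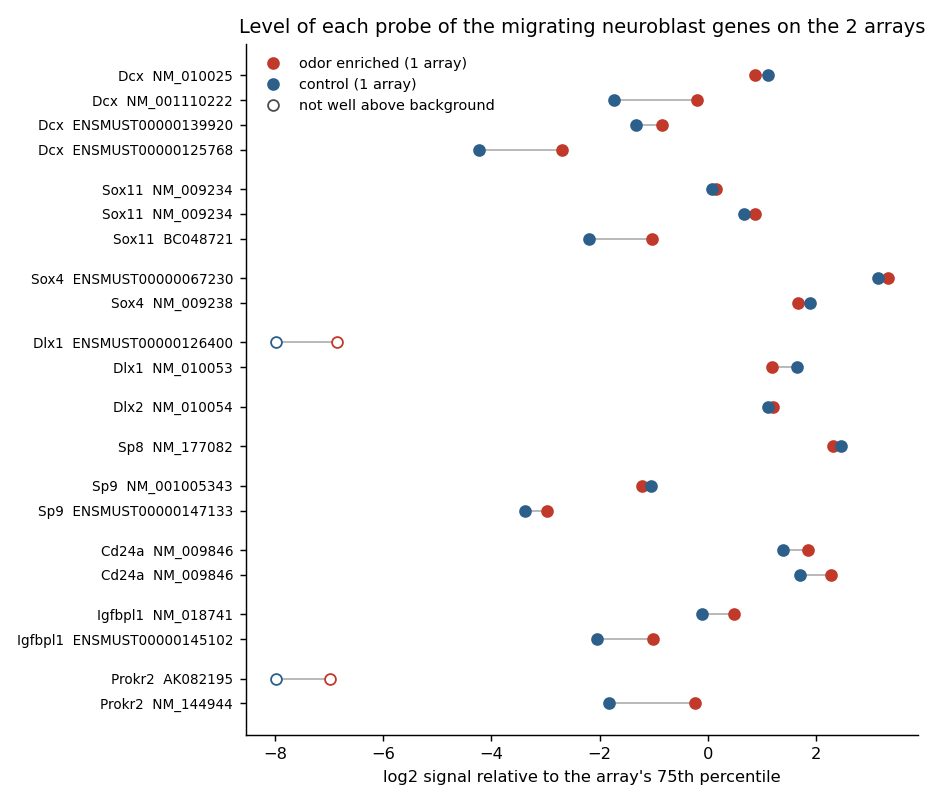
Each row is 1 probe of a migrating neuroblast gene, with the accession it was designed on, and the horizontal axis is its level (log2 scale, 0 at the array's 75th percentile). The odor-enriched array and the control array give 1 point each, open where the probe was not well above background. The points of Sox4, Dlx2 and Sp8 nearly coincide, while those of the measured Prokr2 probe and of 2 Dcx probes lie more than 1.5 log2 units apart.

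Repeat spots set the lower limit of what can be read. For 300 probes printed repeatedly, the pooled SD of the log2 difference between repeat spots was 0.047. Different probes of the same gene differed far more, with a pooled SD of 0.63 over 8234 genes. Each member probe was printed as 1 spot, and 0 of the 21 lay in a patch of the array where the surrounding spots were shifted by over 1.2 log2 units. Neither SD contains any spread between mice.

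Of the 3 genes for surface and secreted proteins, Prokr2 was past 2-fold upward, while Igfbpl1 (0.81) and Cd24a (0.52) were under 2-fold, and all 3 differences were negative under spike-in scaling. Prokr2 encodes the G protein-coupled receptor for prokineticin 2, and mice lacking it have small bulbs and neuroblasts that accumulate in the migratory stream. Its probe on the receptor's mRNA (chr2:132196949-132197008, minus strand; all coordinates are those of mm9 in the files) read 171 ± 17.2 signal units in the odor-enriched sample and 70.7 ± 7.14 in the control sample, where the error is the scanner software's own estimate for the spot. The 2 readings do not overlap within those errors, which hold no spread between mice. The same is true, in the other direction, of the unscaled readings of Dlx1 and of the most 3′ Dcx probe given below. The scaled difference of Prokr2 was 1.58, the value of 1 probe and 1 spot, and 94.6% of measured genes had a lower difference. It stayed above 2-fold in each of 14 other settings that left out the spike-in scaling. Its values ran from 1.11 with normexp background correction to 1.92 with the series matrix values. Some of these settings could not alter it: choosing the brightest, RefSeq-annotated or most 3′ measured probe returned the same 1 probe and 1.58. The difference did not reach 3-fold in the scaling used here. A further probe under the name Prokr2, designed on a cDNA clone 30373 bases downstream, read 1.59 in the odor-enriched sample and 0.99 in the control sample. It was not well above background in either. Its distance exceeds the RefSeq gene length of 15798 bases, so whether it reads Prokr2 is unknown. The measured probe begins as follows, printed 5′ to 3′ as bases 1 to 30 of its 60, to show the stretch on which the only gene value past 2-fold rests. Whether the probes lie in exons or untranslated regions was not analysed here.
Prokr2 NM_144944: cattatgagaaaagatggttcgacaatgaa

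Prok2 encodes the ligand made in the bulb and was picked as the partner of Prokr2 after its value was seen. Its level was -2.95 in the odor-enriched sample and -3.14 in the control sample, a difference of 0.19 that ranged from 0.010 to 0.52 over the same 14 settings. Prokr1, the related receptor, was not well above background on either array.

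Igfbpl1 encodes a secreted protein related to the insulin-like growth factor binding proteins and marks newborn neurons. Its mRNA probe (chr4:45822379-45822438, minus strand) read 281 in the odor-enriched sample and 232 in the control sample, a scaled difference of 0.59. The other probe, 3863 bases further upstream, read 99.7 in the odor-enriched sample and 60.4 in the control sample, a difference of 1.03. Both probes were therefore higher in the odor-enriched sample after scaling, and the gene's mean was 0.81 ± 0.32 (SD between its 2 probes). With the series matrix values it was 1.14, past 2-fold, and in the other 13 settings it was under 2-fold. Igfbp7, a related secreted protein chiefly of blood vessels, differed by 0.69.

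Cd24a encodes a small, heavily glycosylated surface protein that neuroblasts carry and that neurons lose as they mature. Its 2 probes lie 226 bases apart (chr10:43303706-43303765 and chr10:43303932-43303991, plus strand). The first read 734 in the odor-enriched sample and 660 in the control sample, and the second read 986 in the odor-enriched sample and 819 in the control sample. The scaled differences were 0.46 and 0.58, which makes Cd24a the member whose probes lay closest together, with a mean of 0.52 ± 0.080 (SD between probes). The sign was positive in each of the 14 settings, from 0.35 to 0.85, and the gene was never 2-fold higher.

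Cd24a is also known from immature blood cells, B cells, neutrophils and ciliated ependymal cells, and marker lists of several of these differed between the arrays. T and NK cell markers had a summed level of 36.1 in the odor-enriched sample and 5.18 in the control sample, with 12 of 14 measured members past 2-fold upward. B cell markers summed to 2.59 in the odor-enriched sample and 1.58 in the control sample, with 1 of 6, Ms4a1 (1.64), past 2-fold upward. Among all measured genes 11.5% were past 2-fold upward and 5.52% downward. Single calls such as that of Ms4a1 are therefore not read as a result about a list. Here a summed level adds the measured members' signals, each divided by the array's 75th percentile. Neutrophil markers summed to 110 in the odor-enriched sample and 171 in the control sample, with 3 of 10 lower and 1 higher, Ly6g (3.03). Erythroid markers summed to 2731 in the odor-enriched sample and 1304 in the control sample, with 3 of 7 higher. Ependymal markers summed to 5.96 in the odor-enriched sample and 19.8 in the control sample, with 6 of 8 past 2-fold downward. Rsph1 (-3.15) was the lowest of the 8 and Foxj1 (-0.08), which was under 2-fold, the highest. In these lists Ncr1, Blk and Tmem212 were not well above background on either array, and Cd79a and Epb4.2 were so in the control sample only. The lowest level called well above background was -4.66 on the odor-enriched array and -5.69 on the control array. A call in the control sample only is therefore not a lower level. Cd79a stood at -4.80 in the odor-enriched and -5.01 in the control sample, and Epb4.2 at -6.28 and -6.27. The part of the listed cell types in the Cd24a difference was not tested.

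**Figure D2:**
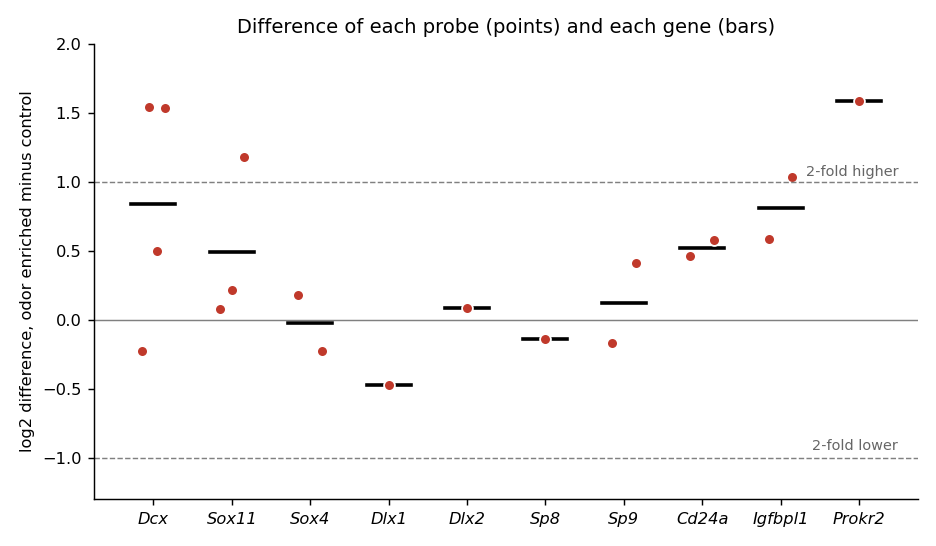
The vertical axis is the log2 difference, odor enriched minus control, of each measured probe (points) and of each gene as the mean of its probes (bars), with dashed lines at 2-fold. Prokr2 alone has its bar above the upper line, and Dcx spans from -0.23 to 1.54 within 1 gene.

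Dlx2 was close to the median of all genes and Dlx1 below it, although Dlx1 was positive without the filter on dim probes. Dlx1 and Dlx2 encode homeodomain transcription factors that drive interneuron production and activate the enzymes of GABA synthesis. They lie next to each other on chromosome 2 in opposite orientations, with their measured probes 10054 bases apart. Dlx1 (chr2:71371499-71371558, plus strand) read 457 ± 45.8 in the odor-enriched sample and 790 ± 79.0 in the control sample, a scaled difference of -0.48 and the lowest among the 10 genes. Dlx2 (chr2:71381612-71381671, minus strand) read 465 in the odor-enriched sample and 542 in the control sample, a scaled difference of 0.09. The neighbours thus differed from each other by more than the repeat-spot SD and by less than the SD between probes of 1 gene. A further Dlx1 probe was not well above background on either array, and when such probes were kept the Dlx1 value was 0.32.

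Related Dlx transcripts gave no common direction. Dlx5 differed by 0.09, Dlx6 by -0.40 and Dlx3 by -0.05, while Dlx4 was not well above background. Dlx6os1, a noncoding transcript from the Dlx5 and Dlx6 locus, differed by 0.05 over 3 probes, and Dlx6os2 differed by 0.90. Dlx1as, transcribed opposite Dlx1, was well above background in the control sample only, with a level of -5.08 in the odor-enriched sample and -4.37 in the control sample. The control level was 1.22-fold above the odor-enriched array's lowest level called above background, -4.66. That lowest level is taken over the whole array and is no firm limit for this dim probe, so no size is given.

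Sp8 and Sp9 are paired zinc finger factors needed for the survival and differentiation of bulb interneurons. Sp8 (chr12:120090880-120090939, plus strand) read 1011 in the odor-enriched sample and 1384 in the control sample, a scaled difference of -0.14. The Sp9 mRNA probe (chr2:73113161-73113220, plus strand) read 86.3 in the odor-enriched sample and 120 in the control sample, a difference of -0.17. A probe assigned to Sp9 by a transcript model, 9543 bases further downstream, read 25.7 in the odor-enriched sample and 24.0 in the control sample, a difference of 0.41. That distance exceeds the RefSeq gene length of Sp9, 3846 bases, so whether the second probe reads Sp9 is unknown. The 2 probes disagree in sign, and the mean over both was 0.12 ± 0.41 (SD between probes). On the mRNA probe alone Sp9 was at -0.17. Other Sp factors lay on both sides of 0, from Sp6 (0.38) and Sp1 (0.32) to Sp7 (-0.83) and Sp5 (-1.07), which was past 2-fold in 11 of 14 settings. Sp2 (-0.12), Sp3 (0.31) and Sp4 (-0.14) were between them.

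SoxC factors bind the regulatory regions of many genes of immature neurons, and the mRNA probes of the members Sox4 and Sox11 had differences between -0.23 and 0.21. Sox4 was measured by 2 probes (chr13:29040826-29040885 and chr13:29042856-29042915, minus strand). One read 2034 in the odor-enriched sample and 2230 in the control sample (0.18 after scaling), and the other read 638 in the odor-enriched sample and 928 in the control sample (-0.23). Their mean was -0.03 ± 0.29 (SD between probes), and its sign changed between settings, positive in 6 of 14. Sox4 is also active in lymphocytes, whose markers are given above with the T and NK cells. Sox12, the remaining SoxC gene and no member, lay outside that range at -0.83.

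Sox11 has 2 probes on its mRNA and 1 on the opposite strand of the same locus. The mRNA probes read 224 and 371 in the odor-enriched sample and 264 and 397 in the control sample, with scaled differences of 0.08 and 0.21. The opposite-strand probe, designed on a cDNA clone and lying 3751 bases upstream of the most 3′ probe, read 99.0 in the odor-enriched sample and 54.3 in the control sample, a difference of 1.18. It is thus the only Sox11 probe past 2-fold, and it alone lifts the gene's mean to 0.49. Without it, using RefSeq-annotated probes only, the Sox11 value was 0.15. Its strand follows from the order of its coordinates in the files, a convention that matched the strand of the gene for 99.6% of 22569 RefSeq mRNA probes. The stretches below are 30 of each probe's 60 bases, printed 5′ to 3′ to show the 2 strands side by side, with the hexamer AATAAA in capitals where a probe holds it. They are bases 1 to 30 for the first and last and bases 30 to 59 for the middle one.
Sox11 NM_009234, chr12:28019541-28019600, minus strand: aaccattctgtattgaaactcttgctataa
Sox11 NM_009234, chr12:28020087-28020146, minus strand: gttcaaaagaccAATAAAaatcgtgtgatc
Sox11 BC048721, chr12:28023292-28023351, plus strand: tggtcttcacaatgcattcgtcgaaaccgc

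AATAAA is the canonical polyadenylation signal. It was searched as these letters in all probes, of which 9.77% hold it on the printed strand and 3.85% on the other strand. Among the 21 member probes 2 hold it, 1 each of Sox11 and Dcx. A match describes the letters only.

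Dcx, which binds and stabilizes microtubules in migrating neurons, gave different answers along its gene. Its probe nearest the 3′ end read 372 ± 37.2 in the odor-enriched sample and 540 ± 54.0 in the control sample, a scaled difference of -0.23. The next, 5483 bases upstream, read 177 ± 17.8 in the odor-enriched sample and 75.3 ± 7.61 in the control sample, a difference of 1.54. At 13017 bases upstream the third read 113 in the odor-enriched sample and 99.4 in the control sample (0.50), and at 17501 bases the fourth read 31.0 in the odor-enriched sample and 13.2 in the control sample (1.54). So 2 of 4 probes were past 2-fold upward, while the 3′ probe was on the other side of 0. The gene's mean was 0.84 ± 0.86 (SD between 4 probes), and 86.9% of the 8234 genes with several measured probes had a smaller SD. When Dcx was represented by its most 3′ probe, which is also its brightest, its value was -0.23. The stretches of the 4 probes are printed from the 3′ end of the gene upstream, since the direction of Dcx rests on which of them is read. The first 2 were designed on RefSeq mRNA variants and the others on transcript models, and bases 25 to 54 are shown for the third and 1 to 30 for the others.
Dcx NM_010025, chrX:140290854-140290913, minus strand: ataaaaagaaaagcaaaacagagatgtgcg
Dcx NM_001110222, chrX:140296337-140296396, minus strand: aactcaacatgaattgatgacaacttggtg
Dcx ENSMUST00000139920, chrX:140303871-140303930, minus strand: tggaaataagcaAATAAAtcaagattatca
Dcx ENSMUST00000125768, chrX:140308355-140308414, minus strand: aaccataggtctgtcttttggctttgttct

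The RNA was copied from oligo dT primers, which start at the poly(A) tail, and the arrays differed along transcripts in general. For 3014 genes with RefSeq probes at least 2000 bases apart, the difference at the most upstream probe minus that at the most 3′ probe had a median of 0.30, with quartiles of -0.16 and 0.80. For the 2 Dcx mRNA variants this shift was 1.77, and 3.98% of those 3014 genes had a larger one. The other members had no such pair of RefSeq probes. Between their own probes the upstream minus 3′ value was 0.45 for Igfbpl1, -0.41 for Sox4 and -0.58 for Sp9, each with 1 probe from a transcript model. For Sox11 and Cd24a, whose mRNA probes lie only 546 and 226 bases apart, it was 0.14 and -0.11. The Sp9 value may not be one along a transcript, since its probes lie further apart than the gene's RefSeq length. Upstream probes were also dimmer. Over the 3014 genes the upstream minus 3′ level had a median of -2.25 in the odor-enriched sample and -2.52 in the control sample. Since differences also varied with brightness, as given below, position and brightness were not separated here. The part of the array-wide shift along transcripts in the Dcx and Igfbpl1 differences was not tested. Dclk1 and Dclk2, the doublecortin-like kinases that share its microtubule-binding domain, differed by 0.12 and -0.24, and Dclk3 by -1.81.

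**Figure D3:**
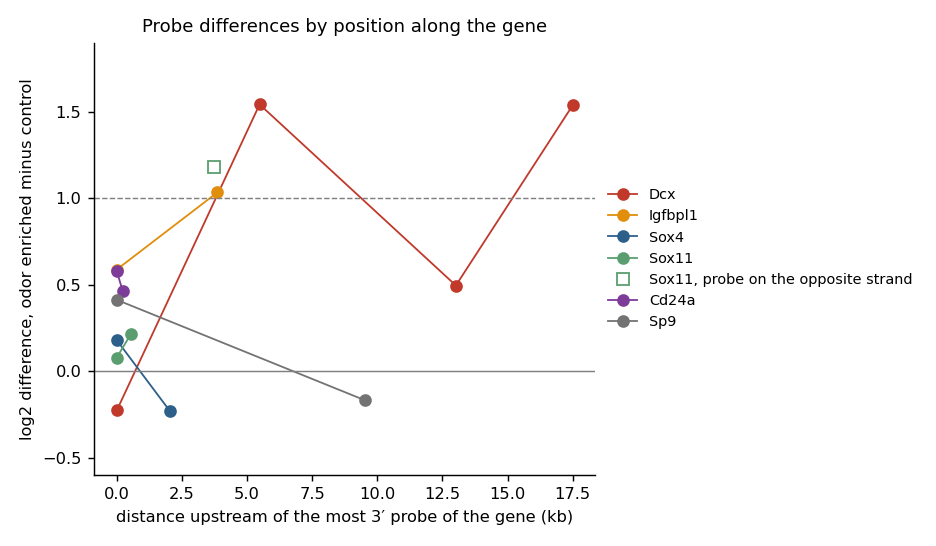
The horizontal axis is the distance in kb of each measured probe upstream of its gene's most 3′ probe, and the vertical axis its log2 difference, odor enriched minus control. Dcx lies at -0.23 at its 3′ end and at up to 1.54 upstream, and the opposite-strand Sox11 probe (open square) lies at 1.18. Sox4 and Sp9 run the other way, but the Sp9 probes lie further apart than the gene's RefSeq length.

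The differences also varied with brightness over the whole array. Among all probes measured on both arrays with a mean level between -2 and -1 the median difference was 0.011, and for those between 1 and 2 it was -0.17. The 5 member probes in the dimmer range had a median of 1.03 and the 4 in the brighter range one of -0.07. Counted over all ranges, 15 of the 19 measured member probes were above the median of probes of like level. Probes of 1 gene are not independent, and the 19 include the opposite-strand Sox11 probe and the distant Sp9 probe. Counts of member probes are therefore not read as a result about the genes. Over member probes alone, 5 of 19 were past 2-fold upward and 0 downward, while 11.6% of all 36639 measured probes were past it upward and 6.51% downward. These 5 were 2 of Dcx, the opposite-strand probe of Sox11, and 1 each of Igfbpl1 and Prokr2.

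Genes around the neuroblasts' journey were read from lists of their guidance, cytoskeleton and fate, whose values all lie lower under spike-in scaling by the shift given above. Of 33 guidance and adhesion genes of the migratory stream 32 were measured, with a median of 0.01, 4 past 2-fold upward and 3 downward. Among all measured genes 11.5% were past 2-fold upward and 5.52% downward, so these few calls are not read as a result about the list. The same shares stand beside the counts of the other lists. The higher guidance genes were the polysialyltransferase St8sia4 (1.89), the chemokine Cxcl12 (1.08), the integrin subunit Itgb1 (1.03) and the growth factor Hgf (1.003). The lower ones were Met (-1.80), the receptor of Hgf, the adhesion molecule Ncam1 (-1.55) and the reelin adaptor Dab1 (-1.07). Itgb1, Hgf, Dab1 and St8sia2 fall outside the rule for named genes and were chosen after their values were seen. Over the 14 settings without spike-in scaling, Hgf was past 2-fold in only 5 (0.42 with normexp), Dab1 in 8, Itgb1 in 9 and Cxcl12 in 13.

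Polysialylated NCAM is the sugar-coated form on which chains of neuroblasts slide, and the transcripts of the protein and of an enzyme that modifies it differed in opposite directions. Ncam1 had a level of 1.64 in the odor-enriched sample and 3.19 in the control sample, with 5 probes from -1.91 to -1.12. St8sia4 had a level of 0.30 in the odor-enriched sample and -1.59 in the control sample, with its 2 probes at 1.87 and 1.92. Both kept over 2-fold and their direction in each of the 14 settings without spike-in scaling. St8sia2, the other enzyme that adds polysialic acid, differed by 0.58. Both Ncam1 and St8sia4 are also made by lymphocytes or other cells of the bulb, and which cells carried the differences was not tested.

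Other cytoskeletal proteins of immature neurons, 18 of them measured, had a median of -0.23, with 0 past 2-fold upward and 2 downward, Cdk5r2 (-1.55), an activator of the kinase Cdk5, and Marcksl1 (-1.06), which was past 2-fold in 8 of the 14 settings. At the upper end were Tmsb10 (0.64, with probes from -0.38 to 2.58) and Stmn2 (0.44). For 22 further transcription factors of bulb interneurons the median was -0.17, with 0 past 2-fold upward and 2 downward, among them the nuclear receptor Nr2f2 (-1.42). Zic2 (0.95) and Meis1 (0.57) were the highest of them. Gsx2 was well above background in the control sample only, where fainter signals were called, and is given no difference.

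Markers on either side of the neuroblast stage were set beside the 10 genes. Mature bulb interneuron markers, such as the GABA-synthesizing enzymes, had a median of -0.24, and 0 of 14 were past 2-fold in either direction. They ran from Gad2 (0.14) and Calb1 (0.11) to Th (-0.49) and Calb2 (-0.88). For 15 markers of stem cells and dividing progenitors the median was 0.33, with 5 past 2-fold upward and 2 downward. The higher ones were Prom1 (2.42) and Nes (1.01), a surface protein and a filament of stem cells that endothelial cells can also carry, and the division genes Top2a (1.62), Birc5 (1.53) and Mki67 (1.43). The lower ones were Hes5 (-1.14) and Fabp7 (-1.10), markers of radial and astrocyte-like cells. Nes, Hes5 and Fabp7 were past 2-fold in 12 of the 14 settings, Top2a and Birc5 in 13, and Prom1 and Mki67 in 14. Beside these stand the endothelial list, with a summed level of 61.1 in the odor-enriched sample and 29.5 in the control sample and 8 of 10 members higher, and the T and NK cell list given above. Their part in the division and stem cell genes was not tested, and Nes, Birc5 and Mki67 were named after their values were seen. Among the bulb's other cells, granule cell markers had a median of -0.36, dopaminergic periglomerular markers of -0.29, mitral and tufted markers of -0.58 and sensory neuron markers, from axons that enter the bulb, of -1.48. The periglomerular list held 2 genes past 2-fold upward and 1 downward, and the mitral and tufted list 2 upward and 3 downward. Most of the granule cell markers are also in the mature interneuron list, so those 2 lists are not separate readings. Related genes of the members, the paralogues named above, had a median of -0.12.

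**Figure D4:**
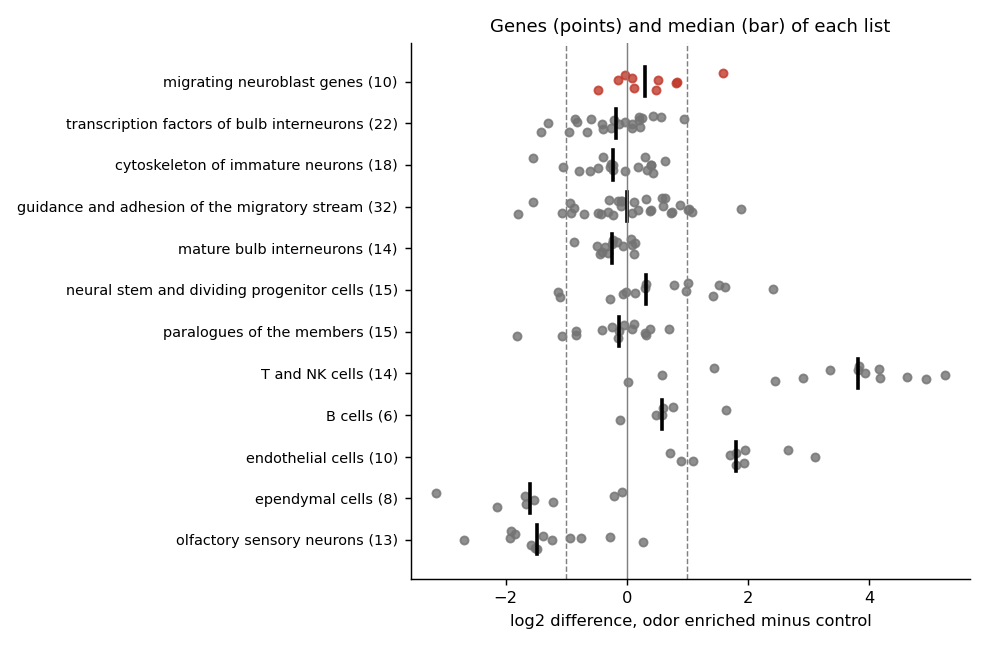
The horizontal axis is the log2 difference, odor enriched minus control, of each measured gene (points) and the median of each list (bars), with the number of measured genes in parentheses. The migrating neuroblast genes lie between -0.48 and 1.58, well within the spread of the guidance list, while the medians of T and NK cell and endothelial markers lie to the right and those of ependymal and sensory neuron markers to the left.

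Genes beside the 10 members had differences around 0. Of the 10, 4 lie on chromosome 2 (Dlx1, Dlx2, Sp9 and Prokr2) and 2 on chromosome 12 (Sox11 and Sp8), the rest on chromosomes of their own. Within 200000 bases of their probes 37 other gene names were measured, with a median difference of -0.02, 4 past 2-fold upward and 2 downward. These counts are near the shares of all measured genes, 11.5% upward and 5.52% downward, and are not a result about the neighbours. The lower neighbours were Capn6 (-1.73), near Dcx, and Gm14051 (-1.32), near Prokr2. The higher ones were E230008N13Rik (1.61), near Igfbpl1, the cDNA CF546364 (1.17), near Cd24a, and a locus named only by its coordinates near Sox4 (2.86) and another near Dlx2 (2.71). These 6 were named after their values were seen.

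Several of the small differences changed sign with the processing. Cd24a, Igfbpl1, Sox11 and Prokr2 were positive in each of the 14 settings without spike-in scaling, Dlx1 was negative in 13, and Dcx was positive in 12, all but its brightest and its most 3′ probe. Dlx2 was positive in 13, Sp9 in 10, Sox4 in 6 and Sp8 in 2. For Sox11 most of these settings kept its opposite-strand probe. Its mRNA probes alone differed by 0.08 and 0.21 in the scaling used here and were not read alone under other scalings. Prokr2, Dlx1, Dlx2 and Sp8 have 1 measured probe each, so settings that choose among measured probes could not change their values. The same holds for other genes measured by 1 probe. The 6 genes whose sign changed within these 14 settings, Dlx1 and Dcx among them, are given no direction. Cd24a, Igfbpl1, Sox11 and Prokr2 were negative under spike-in scaling, so their direction holds only without it.

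**Figure D5:**
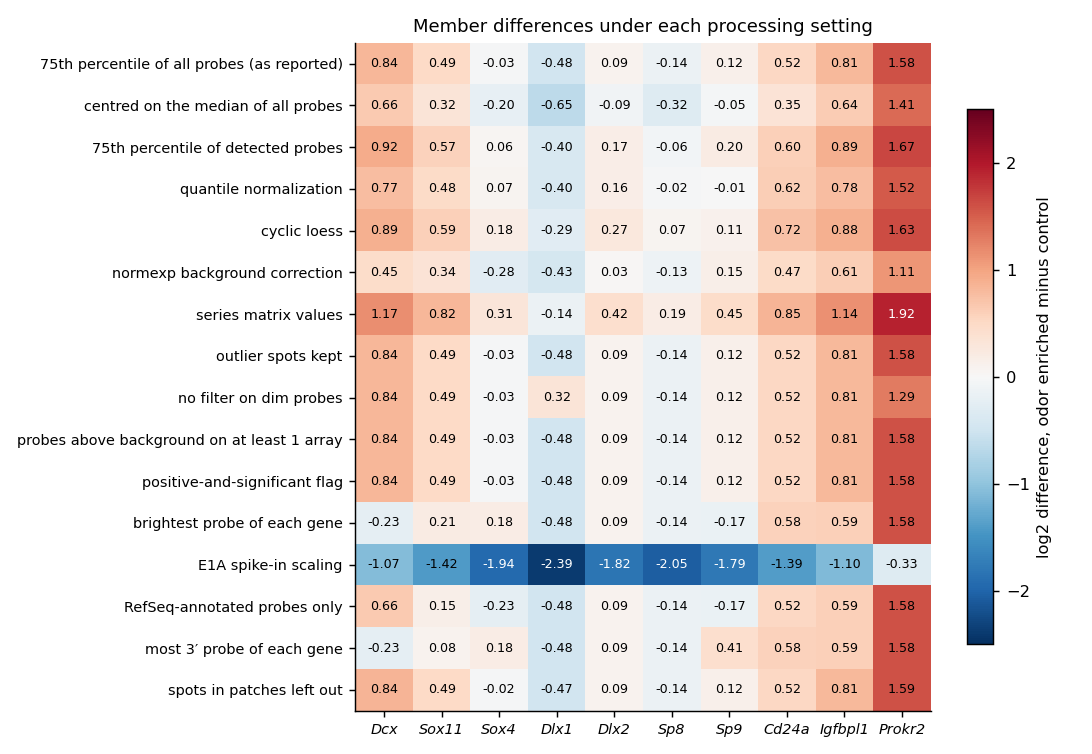
Each cell is the log2 difference, odor enriched minus control, of a migrating neuroblast gene (columns) under a processing setting (rows), with colour on the same scale. Prokr2 lies between 1.11 and 1.92 in every row except the spike-in scaling, where all 10 genes are negative.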

How the data were processed

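Per the file headers, the authors scanned 1 Cy3 array per sample and extracted spots with Agilent Feature Extraction 11.5.1.1. The deposited processed signal is an intensity from which the software had taken background and a spatial trend, with no scaling between arrays, and probe coordinates are on mm9. Both arrays come from the same slide and were scanned separately. The authors' deposited series matrix is on a log2 scale, since its values equalled the log2 processed signal minus a constant per array (within 0.01 for 99.9% of probes in the odor-enriched and 91.7% in the control sample). Its medians were -8.98 for the odor-enriched and -9.48 for the control sample, the origin of its centring is unknown, and it served as an alternative only.

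Outlier-flagged spots were left out (183 in the odor-enriched, 122 in the control sample), spots averaged per probe on the log2 scale, and the array's 75th percentile (7.66 in the odor-enriched, 7.97 in the control sample) subtracted. Genes are described by size at 2-fold. Named genes were the members, their paralogues and antisense transcripts, and the 2 highest and 2 lowest of each of 17 lists, of which the cell type lists are mostly given by their counts and sums, and 1 gene is not reported here. The members and lists were chosen with earlier results of these data known. Probe sequences came from the array files and gene strands from RefSeq (GRCm38.p6). The steps were tested on simulated data. Tools were Python 3.11.15, numpy 2.4.6, pandas 2.3.3, matplotlib 3.10.9, R 4.3.3 and limma 3.58.1. Alternatives covered scaling, background correction (normexp, offset 50), the filter on dim probes, the choice of probe and the threshold. The spike-in scaling, RefSeq-only probes, the most 3′ probe and leaving out patches (medians of 9 by 5 spots beyond 1.2 log2 units) were chosen after seeing the data.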

Additional observations from a re-analysis of the deposited data

How the results depend on the processing

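No paired analysis was possible because each group holds 1 sample, which also leaves no replicate to omit. The median difference of the 10 neuroblast genes, 0.31 as reported, was positive in 14 settings. It was 0.13 with centring on the array median, 0.39 with the percentile over detected probes, 0.43 with cyclic loess, 0.25 with normexp, 0.64 with the series matrix values, 0.40 with no filter on dim probes, 0.13 with each gene's brightest probe, 0.12 with RefSeq-annotated probes and 0.13 with the most 3′ probe. Spike-in scaling gave -1.61, with 0 genes at least 2-fold higher, 9 at least 2-fold lower and Prokr2 at -0.33. Under it 1.30% of all genes were at least 2-fold higher and 86.9% lower, so these counts are not a result about the 10 genes. Against the median of all genes the 10 genes were higher by 0.16 to 0.38 over the 16 scalings, filters and probe choices. Scalings that only shift an array by a constant, the spike-in scaling among them, cannot change this gap and left it at 0.30. The median of all genes moved by -0.17 with median centring, 0.33 with the matrix, 0.21 with no filter and -1.91 with the spike-in scaling. The number of members at least 2-fold higher, 1 as reported, was 3 with the matrix values (Dcx, Igfbpl1 and Prokr2), where 18.7% of all genes passed, and 3 at a 1.5-fold threshold, where 21.2% passed. It was 0 at a 3-fold threshold, where 5.39% passed. The spike-in probes are added RNA, and their 10 probes differed between arrays by 0.53 to 4.42 log2 units before scaling; the cause was not tested. The depth behind a value is 1 spot per member probe and array.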
